A study of Danio rerio with 2 samples.

Results

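The 10 glycolysis genes described here are pkma, gapdh, gapdhs, ldha, ldhba, pgk1, eno1a, aldoaa, tpi1b and pgam1a, out of 15411 genes in an aggregated single-cell matrix of the zebrafish larval caudal fin fold. They were chosen by name and not by a rule on their values, though earlier results of these data were known. Larvae had the caudal fin fold amputated at 3 days post fertilization (dpf), and the regenerating folds were collected 24 h post-amputation (hpA) as the cut library. The uncut library came from intact folds of larvae that were not amputated, listed with the same 3 dpf age and 24 h time point. The line is not stated for these libraries. Each library was made from about 150 pooled fin folds with the Chromium 3' chemistry, in which each captured transcript is counted once by its unique molecular identifier (UMI), so neither library shows the spread between larvae. With 1 library per condition no test of cut against uncut was possible. The intervals below are 95% counting intervals, which cover counting error only.

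Glycolysis splits glucose into pyruvate in the cytosol and yields ATP without oxygen. Aldolase cuts the sugar, triose phosphate isomerase interconverts the products, glyceraldehyde phosphate dehydrogenase and phosphoglycerate kinase take up phosphate and make the first ATP, and phosphoglycerate mutase, enolase and pyruvate kinase complete the path. Lactate dehydrogenase turns pyruvate into lactate or back. Most of these enzymes exist as several isozymes encoded by separate genes, and zebrafish often carry a further pair of copies from an old genome duplication. Macrophages and neutrophils are known as strongly glycolytic cells, and phosphate sugars of the same path feed the pentose phosphate pathway.

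The cut library held 762 cells and the uncut library 878, and no cell barcode occurred in both. Aggregation had lowered the cut library to 95.3% of its UMIs and left the uncut library as it was, yet the median depth remained 7212 UMIs per cell in the cut library against 10476.5 in the uncut one. Cells were clustered without the glycolysis and related genes, and clusters were named by marker genes, so each name means cells like that type by its markers. Of 21 clusters, 6 with 345 cut and 294 uncut cells were superficial epidermis, 1 was epithelial cap (14 and 22 cells), 2 were mesenchyme (39 and 113), 2 were cycling (57 and 93) and 1 was myeloid (36 and 12). Together these hold 1025 of 1640 cells, and all 48 of their measured markers were highest in their own group, which is how the groups were made. The epithelial cap name rests on markers such as fgf8a, mmp9 and mmp13a, and most cells of that group came from intact folds. No doublet caller was run, and a level relative to all UMIs cannot tell fewer transcripts of a gene from more transcripts of other genes in the same cells.

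Signal of other cell types was uneven. Of the 36 cut myeloid cells, 1 held 1081 of that group's 1115 UMIs of superficial epidermis markers, and the summed level of these markers was 5492 UMIs per 1000000 UMIs of the same cells (UPM) in cut and 172 in uncut myeloid cells, with 1 and 6 of the 9 markers at 0, against 71545 and 75535 in superficial epidermis. Without that cell the cut myeloid level of these markers was 187 UPM. Cycling cells held 9546 UPM of superficial epidermis markers in the cut and 4437 in the uncut library, and 4583 and 13768 UPM of mesenchyme markers. Superficial epidermis markers stood at 638 UPM in the cut and 4781 in the uncut epithelial cap, with 1 and 0 of 9 at 0. Basal epidermis markers stood at 10890 and 9166 UPM in that group, with 1 and 0 of 7 at 0. Mesenchyme markers stood there at 10183 and 18771 UPM, with the highest single marker at 10086.5 and 18526.2 and 6 and 5 of 10 at 0. In mesenchyme pigment markers stood at 2834 UPM in the cut and 93.0 in the uncut library, with 3 and 4 of 5 at 0, and notochord and cartilage markers at 3.52 and 880, with 4 and 1 at 0. Muscle markers, of interest because muscle is rich in glycolytic enzymes, lay between 0 and 66.9 UPM in the 5 groups and at 37910 and 29415 in the 12 muscle cells. The part of these signals in the levels below was not tested, except where a value without the cells in question is given.

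Myeloid cells had the highest summed level of these 10 genes among the 5 groups, an order that in the uncut library did not hold for all listed isozymes of the steps summed. The 10 genes summed reached 4364 UPM (4081 to 4661) in cut and 3009 UPM (2666 to 3383) in uncut myeloid cells. Mesenchyme followed with 1266 UPM (1138 to 1404) in cut and 1229 (1168 to 1292) in uncut cells. Cycling cells held 1008 UPM (914 to 1110) and 1000 (948 to 1054). Superficial epidermis held 665 UPM (639 to 692) in cut and 669 (644 to 694) in uncut cells, and the epithelial cap 559 (430 to 714) and 697 (593 to 812). Over cells of all depths, each of the first 3 groups in this order had intervals clear of the next in both libraries, whereas superficial epidermis and epithelial cap overlapped. The mean of the libraries was 5.87 times as high in myeloid cells as in the epithelial cap, the lowest group. Without the myeloid cell that carried superficial epidermis markers, the cut myeloid level was 4693 UPM.

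Myeloid cells also had the highest median per cell at equal depth, though single cells of different groups overlapped. Each cell was thinned at random to 2000 UMIs, which left out 8 shallower myeloid, 11 cycling, 16 superficial epidermis and 1 mesenchyme cell of the cut library. The median cell then held 9 UMIs of the 10 genes in cut myeloid cells (quartiles 6 and 11, range 2 to 19, 28 cells) and 6 in uncut myeloid cells (quartiles 4 and 8.25, range 2 to 13, 12 cells). In superficial epidermis the median was 1 UMI in both libraries, and 106 of 329 cut and 87 of 294 uncut cells held none. No myeloid cell was without a UMI of these genes. Mesenchyme had a median of 2 UMIs in both libraries, cycling cells 1 in the cut and 2 in the uncut library, and the epithelial cap 1 in both. The highest mesenchyme cells held 9 UMIs in the cut and 10 in the uncut library, and the highest cycling cells 10 in both.

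**Figure D1:**
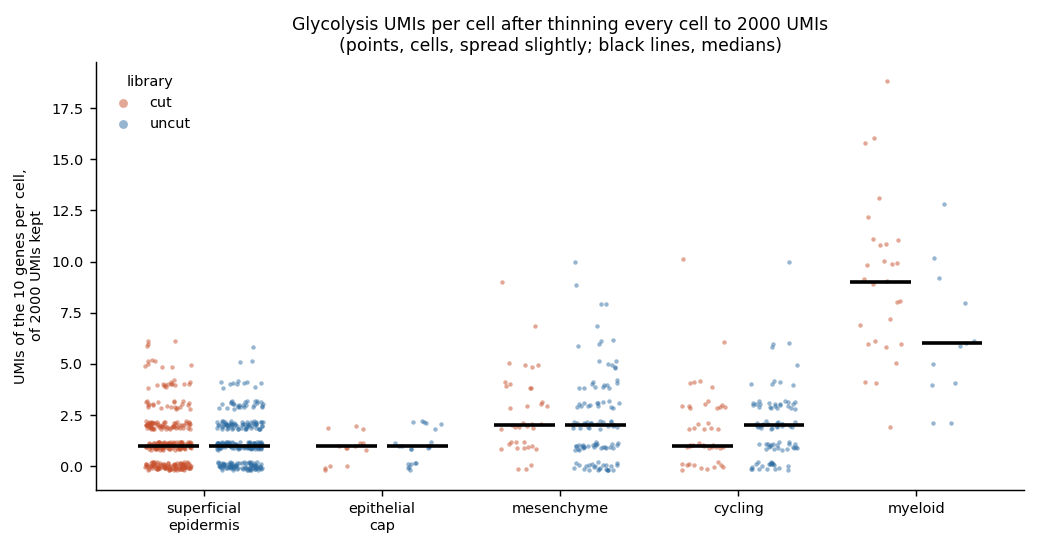
UMIs of the 10 glycolysis genes per cell (vertical axis) after thinning every cell to 2000 UMIs, by cell group, with a point for each cell, red for cut and blue for uncut, and black lines at the medians. Myeloid cells sit at medians of 9 and 6 UMIs and all other groups at 1 or 2.

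Among single genes, 8 of the 10 were highest in myeloid cells in both libraries, namely all but ldhba and eno1a. Of 7497 genes with at least 50 UMIs in the 5 groups, 8.64% were highest in myeloid cells in both libraries. None of the 10 was highest in both libraries in another group, where 11.7% of genes were highest in superficial epidermis, 13.3% in the epithelial cap, 8.04% in mesenchyme and 12.9% in cycling cells. The count of 8 was the same without the myeloid cell that carried epidermal markers. It was 7 without the 4 myeloid cells with at least 2 UMIs of lyz or mpx, since gapdh then dropped out. That last setting was chosen after the values were seen.

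Aldolase A, encoded by aldoaa, splits fructose bisphosphate. Its level was 360 UPM (282 to 452) in cut and 291 (192 to 424) in uncut myeloid cells, against 104 and 110 UPM in superficial epidermis. Mesenchyme had 207 UPM in the cut and 116 in the uncut library, cycling cells 169 and 156, and the epithelial cap 87.3 and 159. Its mean level spanned 3.05-fold from the lowest to the highest group, the narrowest span among the genes for which a fold could be given. Within each library the myeloid interval was clear of that of cycling cells, the next group by mean, and in the uncut library it overlapped that of the epithelial cap (112 to 219). These are levels of aldoaa alone and do not give the order of the groups for the whole aldolase step.

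Triose phosphate isomerase, the product of tpi1b, makes both products of the aldolase step usable. Myeloid cells had 463 UPM (374 to 567) in cut and 280 (183 to 411) in uncut cells. Mesenchyme with 165 and 126 UPM, the epithelial cap with 131 and 120 and cycling cells with 128 and 118 lay close together, and their libraries overlapped. Superficial epidermis was lowest with 67.7 and 63.5 UPM.

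At the glyceraldehyde phosphate dehydrogenase step the 5 groups had mostly gapdhs, and muscle cells, outside these groups, had mostly gapdh. The gene gapdhs, whose counterpart in mammals is named for a sperm-specific form, had the most UMIs of the 10 in myeloid cells (3' tags, which do not scale with transcript length), at 1547 UPM (1380 to 1727) in cut and 981 (790 to 1205) in uncut cells. It lay at 266 and 214 UPM in cycling cells, 134 and 154 in mesenchyme, 130 and 138 in superficial epidermis and 122 and 189 in the epithelial cap. The myeloid intervals stood clear of all of these. The gene gapdh, often used as a reference gene, was by contrast almost restricted to muscle: 670 of its 766 UMIs (87.5%) came from the 12 muscle cells, at 4218 UPM in the cut and 2404 in the uncut library, where gapdhs had 16.0 and 17.7 UPM.

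In 4 of the 5 groups gapdh had few UMIs. Superficial epidermis held 1 gapdh UMI in 345 cut cells and 2 in 294 uncut cells, or 0.274 and 0.475 UPM. The epithelial cap held 0 in both libraries, which allows up to 26.2 UPM in the cut and 12.9 in the uncut library, and cut mesenchyme held 0, which allows up to 10.5 UPM. Uncut mesenchyme was at 12.9 UPM, and cycling cells were at 14.5 and 10.1 UPM, the former from 6 UMIs of a single cell.

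Myeloid cells held 49 gapdh UMIs, 78.8 UPM (45.0 to 128) in cut and 356 (245 to 500) in uncut cells, and few cells carried them. The 4 of 48 cells with at least 2 UMIs of lyz or mpx, genes of neutrophil granule proteins, held 45 of the 49. In the 3 such cut cells gapdh stood at 1753 UPM, and in the 1 uncut cell at 2929 UPM. That uncut cell had 10926 UMIs in all, 32 of gapdh, 591 of lyz, 39 of mpx and 0 of the macrophage genes mpeg1.1 and mfap4. The other 44 cells, 40 of them with at least 2 UMIs of mpeg1.1 or mfap4, held 4 gapdh UMIs, 15.3 UPM in the cut and 12.2 in the uncut library. The lyz or mpx cells held 1 muscle marker UMI between them. The gene gapdhs did not split this way, with 1618 against 1544 UPM in cut and 1373 against 929 in uncut cells. This division of the myeloid cells was made after the values were seen, and it rests on 4 cells.

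**Figure D2:**
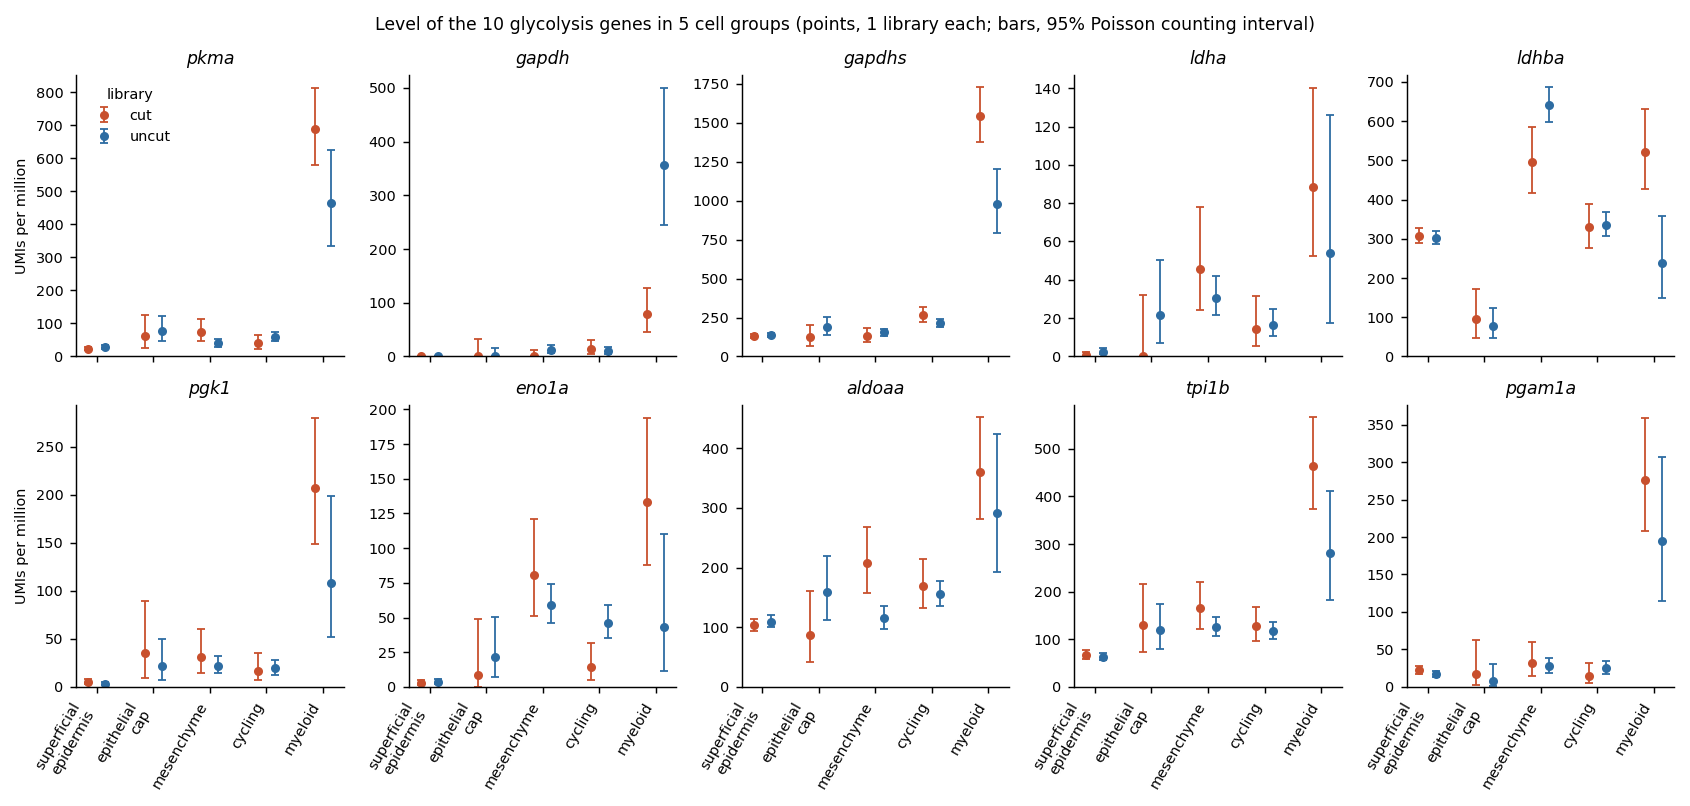
Level of each of the 10 glycolysis genes in UPM on linear axes that start at 0 and differ in scale between genes, by cell group, with a red point for the cut and a blue point for the uncut library and bars for the 95% counting interval. The myeloid points lie highest in both libraries for 8 genes. For ldhba the highest point is that of mesenchyme in the uncut library and that of myeloid cells in the cut one.

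Phosphoglycerate kinase, made from pgk1, yields the first ATP. Its level was 207 UPM (149 to 280) in cut and 108 (51.7 to 198) in uncut myeloid cells. It was 34.9 and 21.5 UPM in the epithelial cap, 31.6 and 21.8 in mesenchyme, 16.9 and 19.4 in cycling cells and 5.48 and 3.33 in superficial epidermis. The span from the lowest to the highest mean was 35.7-fold.

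Phosphoglycerate mutase, made from pgam1a, moves the phosphate for the enolase step. It had 276 UPM (208 to 358) in cut and 194 (115 to 307) in uncut myeloid cells, clear of all other groups. Mesenchyme had 31.6 and 27.5 UPM, superficial epidermis 22.5 and 16.9, cycling cells 14.5 and 25.2, and the epithelial cap 17.5 and 8.60. The mean in myeloid cells was 18.0 times that of the epithelial cap, the lowest group, which rests on 2 UMIs in each library. These are levels of pgam1a alone. The 3 mutase genes summed gave 315 and 216 UPM in myeloid cells, 61.1 and 51.6 in the epithelial cap and 32.3 and 25.7 in superficial epidermis.

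Enolase 1, made from eno1a, forms phosphoenolpyruvate. Cut myeloid cells had 133 UPM (87.6 to 193) and cut mesenchyme 80.9. In the uncut library the order turned, with 59.0 UPM in mesenchyme and 43.1 (11.8 to 110) in myeloid cells. Superficial epidermis, at 2.74 and 3.57 UPM, had the lowest mean, and the highest was 27.9 times it. Cycling cells lay between with 14.5 and 46.0 UPM, and the epithelial cap with 8.73 and 21.5.

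Pyruvate kinase M, made from pkma, forms pyruvate and the last ATP. It had 690 UPM (580 to 814) in cut and 464 (336 to 625) in uncut myeloid cells, clear of all other groups. The others lay from 23.8 and 28.1 UPM in superficial epidermis through 41.1 and 59.0 in cycling cells and 73.8 and 40.4 in mesenchyme to 61.1 and 77.4 in the epithelial cap. The last 3 of these overlapped between libraries, and the highest mean was 22.2 times the lowest.

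Lactate dehydrogenase was led by ldhba, the B chain known from heart and other aerobic tissue. It had the most UMIs of the 10 genes in superficial epidermis, mesenchyme and cycling cells in both libraries. Mesenchyme had 496 UPM (417 to 585) in cut and 640 (596 to 686) in uncut cells, where 1 cell gave 87 of 792 UMIs. Cut myeloid cells had 522 UPM (427 to 631) and uncut myeloid cells 237 (149 to 359). The intervals of mesenchyme and myeloid cells overlapped in the cut library, and in the uncut library that of mesenchyme lay clear above. Cycling cells followed with 329 and 336 UPM, superficial epidermis with 308 and 303, and the epithelial cap with 96.1 and 77.4.

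The A chain gene ldha, known from muscle and hypoxic tissue, was sparse. It had 88.7 UPM (52.5 to 140) in cut and 53.9 (17.5 to 126) in uncut myeloid cells and 45.7 and 30.7 in mesenchyme, with overlapping intervals. Cycling cells had 14.5 and 16.5 UPM and superficial epidermis 0.822 and 2.38. In the epithelial cap it stood at 0 in the cut library, with an interval up to 32.2 UPM, and at 21.5 in the uncut one.

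Across the 10 points of 5 groups and 2 libraries, log2(UPM + 10) of each gene was set against that of the other 9 summed. Pearson's r was 0.24 for ldhba and between 0.77 for eno1a and 0.94 for pgam1a for the other 9 genes. These points share libraries and are few, and myeloid cells hold the extremes, so the values are a description only. The 5 genes outside all lists with the most similar pattern to the 10 summed, among 4081 compared over the same points, were LOC795545 (r = 0.96), gyg1a (0.95), ctsh (0.95), gpx1a (0.95) and zgc:152830 (0.95). Of these gyg1a encodes glycogenin, which starts glycogen chains, ctsh cathepsin H, a lysosomal protease, and gpx1a a glutathione peroxidase. LOC795545 reached 16898 UPM at its highest point and 34.4 at its lowest.

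Depth differed between groups, with medians in the cut and uncut library of 2488.5 and 4332 UMIs in myeloid cells, 8745 and 12426 in superficial epidermis, 5825 and 9500 in mesenchyme, 4375 and 14776 in cycling cells and 6183.5 and 7874.5 in the epithelial cap. The levels were therefore compared within bins of depth. In superficial epidermis the 10 genes summed moved little, from 599 UPM below 4000 UMIs through 610 and 708 to 652 at 16000 and above in the cut library, and through 673, 624, 720 and 641 in the uncut one. In myeloid cells the same bins gave 4540, 5408, 3454 and 4636 UPM in the cut library (22, 6, 5 and 3 cells) and 2669, 1993, 3299 and 3477 in the uncut one (4, 4, 2 and 2 cells). Myeloid cells stood above superficial epidermis in every bin of both libraries. Mesenchyme ran from 1640 in the shallowest through 1231 and 1205 to 1402 UPM in the cut library, the last from 1 cell, and through 1538, 1210, 1079 and 1394 in the uncut one. In cycling cells the bins gave 1008, 1179, 992 and 941 UPM in the cut library and 1337, 613, 935 and 1045 in the uncut one. From 4000 to below 8000 UMIs, uncut cycling cells at 613 (449 to 818) lay just below superficial epidermis at 624 (541 to 715). Mesenchyme lay above cycling cells in every bin, with intervals apart only in that uncut bin and the deepest uncut one.

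**Figure D3:**
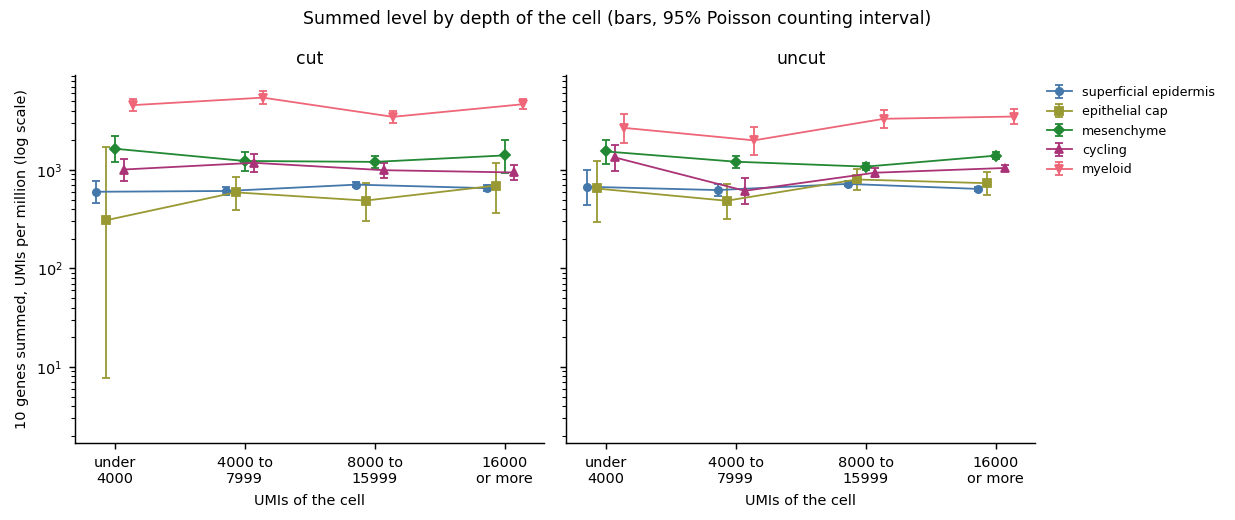
Level of the 10 glycolysis genes summed, in UPM on a log axis, against the depth bin of the cells in UMIs, with a panel for each library, a line for each group and bars for the 95% counting interval. Myeloid cells lie above superficial epidermis in all 4 bins, and mesenchyme is highest in the shallowest bin in both libraries.

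Shares of cells with a UMI moved with depth far more than levels did. For pkma, 18.0% of cut and 29.9% of uncut superficial epidermis cells held a UMI before thinning, but 4.56% (2.57 to 7.41) and 7.14% (4.48 to 10.7) at 2000 UMIs per cell. In myeloid cells the thinned share was 78.6% (59.0 to 91.7) in cut and 66.7% (34.9 to 90.1) in uncut cells, against 77.8% and 75% unthinned. Every cell type is known to use these enzymes, so no type serves as a background for these shares. For gapdhs 96.4% of cut and 83.3% of uncut myeloid cells held a UMI at 2000 UMIs, against 21.9% and 21.4% in superficial epidermis, and all of these shares were larger or equal without thinning. For ldhba the thinned share was 63.2% and 52.2% in mesenchyme, 39.8% and 42.5% in superficial epidermis and 53.6% and 33.3% in myeloid cells, with 8 of 36 cut myeloid cells too shallow to count.

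Cut over uncut, the summed level of the 10 genes had a counting interval clear of 0 in myeloid cells and not in the other 4 groups with the groups as named above. The log2 ratio of cut over uncut was 0.54 (0.34 to 0.74) there, -0.01 (-0.09 to 0.07) in superficial epidermis, 0.04 (-0.13 to 0.21) in mesenchyme, 0.01 (-0.15 to 0.17) in cycling cells and -0.32 (-0.76 to 0.11) in the epithelial cap. The median gene was not at 0 in all groups either, with log2 ratios of 0.32 in myeloid cells, 0.22 in mesenchyme, 0.07 in superficial epidermis, 0.00 in the epithelial cap and -0.02 in cycling cells. Relative to that median the myeloid value was 0.22 and the mesenchyme value -0.18. Ribosomal protein genes took 33.1% of UMIs in cut and 43.7% in uncut myeloid cells, and with them left out of the totals the myeloid ratio was 0.29. In the epithelial cap 3 other groupings gave lower ratios with intervals clear of 0, namely -0.38 (-0.66 to -0.11) with the pathway genes kept, -0.46 (-0.78 to -0.15) at a finer resolution and -0.36 (-0.61 to -0.11) with cells gated on markers. The differences between the groups' ratios were not tested.

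Of the 50 pairs of gene and group, 27 had at least 50 UMIs and were read. A level at least 1.5-fold apart counted as different, and 6 pairs were higher in the cut library, 2 lower and 19 within that limit. In superficial epidermis 0 of 6 genes passed in either direction, where 7.37% of 5763 genes were higher and 4.44% lower. The 6 log2 ratios ran from -0.24 for pkma to 0.41 for pgam1a, with a median of -0.03, and within the 6 clusters of this group the ratio of the 10 summed ran from -0.22 to 0.12. Single genes differed more between these clusters. The gene gapdhs was at -1.01 (-1.55 to -0.50) in one and 0.44 (0.09 to 0.80) in another. In one cluster each, tpi1b was at -0.84 (-1.74 to -0.02) and ldhba at -0.42 (-0.76 to -0.08). No other gene of the 10 had an interval clear of 0 within these clusters.

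In myeloid cells 4 of 7 genes were higher in the cut library and 0 lower, beside 34.6% of 630 genes higher and 8.89% lower. The log2 ratio was 0.66 (0.32 to 1.01) for gapdhs, 1.14 (0.47 to 1.87) for ldhba, 0.72 (0.08 to 1.41) for tpi1b and 0.94 (-0.08 to 2.10) for pgk1, whose interval reached below 0. The other 3 were 0.57 for pkma, with an interval clear of 0, 0.51 for pgam1a and 0.30 for aldoaa. The median of the 7 was 0.66. In uncut myeloid cells the top cell of each gene gave 34 of 91 UMIs for gapdhs, 8 of 22 for ldhba, 6 of 26 for tpi1b and 6 of 10 for pgk1. The counting intervals do not cover such unevenness between cells. With ribosomal protein genes out of the totals gapdhs was at 0.41 and tpi1b at 0.47, under the limit. Relative to the median gene 2 of the 7 were still at least 1.5-fold higher, where 20.6% of genes were higher and 21.1% lower. The gene gapdh had 16 cut and 33 uncut UMIs, under the limit, and its ratio of -2.17 rests on the uncut cell with lyz described above.

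The 10 genes summed were higher in cut than in uncut myeloid cells in each of the 4 depth bins, with intervals apart below 8000 UMIs and overlapping in the deeper bins. Without the lyz or mpx cells the log2 ratio was 0.70 (0.48 to 0.92), and without the cell that carried epidermal markers 0.64 (0.44 to 0.84), where pkma at 0.71 also passed the limit. The uncut value rests on 12 cells, 1 of which gave 83 of the 279 UMIs, and amputation and library cannot be told apart.

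In mesenchyme 2 of 7 genes were higher in the cut library and 0 lower, beside 22.6% of 2353 genes higher and 7.31% lower. These were pkma, with a log2 ratio of 0.87 (0.06 to 1.63), and aldoaa, with 0.84 (0.38 to 1.29). The gene ldhba was at -0.37 (-0.64 to -0.11), under 1.5-fold. Relative to the median gene the counts were 2 higher and 1 lower, with 12.8% and 13.3% of genes. Within the mesenchyme clusters aldoaa was at 0.73 and 1.05, and the 10 summed at 0.13 and -0.19. Under other groupings both genes came under the limit, aldoaa at 0.50 with cells gated on markers and pkma at 0.56 with the pathway genes kept in the clustering, and ldhba was at 0.15 with thinned cells.

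In cycling cells 0 of 6 genes were higher and 1 lower in the cut library, beside 14.4% of 2920 genes higher and 15.2% lower. This was eno1a, with a log2 ratio of -1.67 (-3.16 to -0.47) from 6 cut and 64 uncut UMIs. The groups differ in make-up here: 38 of 57 cut cells fell in one cycling cluster and 66 of 93 uncut cells in the other, which also held raised mesenchyme markers. Within the clusters eno1a was at -1.14 (-2.82 to 0.16) and -2.29 (-7.78 to 0.67), both intervals including 0. At a finer resolution pkma at -1.39 and aldoaa at -0.60 were also lower in cut cycling cells by at least 1.5-fold, against -0.52 and 0.12 here. In the epithelial cap only gapdhs reached 50 UMIs, at -0.63 (-1.61 to 0.26), lower by over 1.5-fold, beside 19.1% of 808 genes higher and 22.3% lower.

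**Figure D4:**
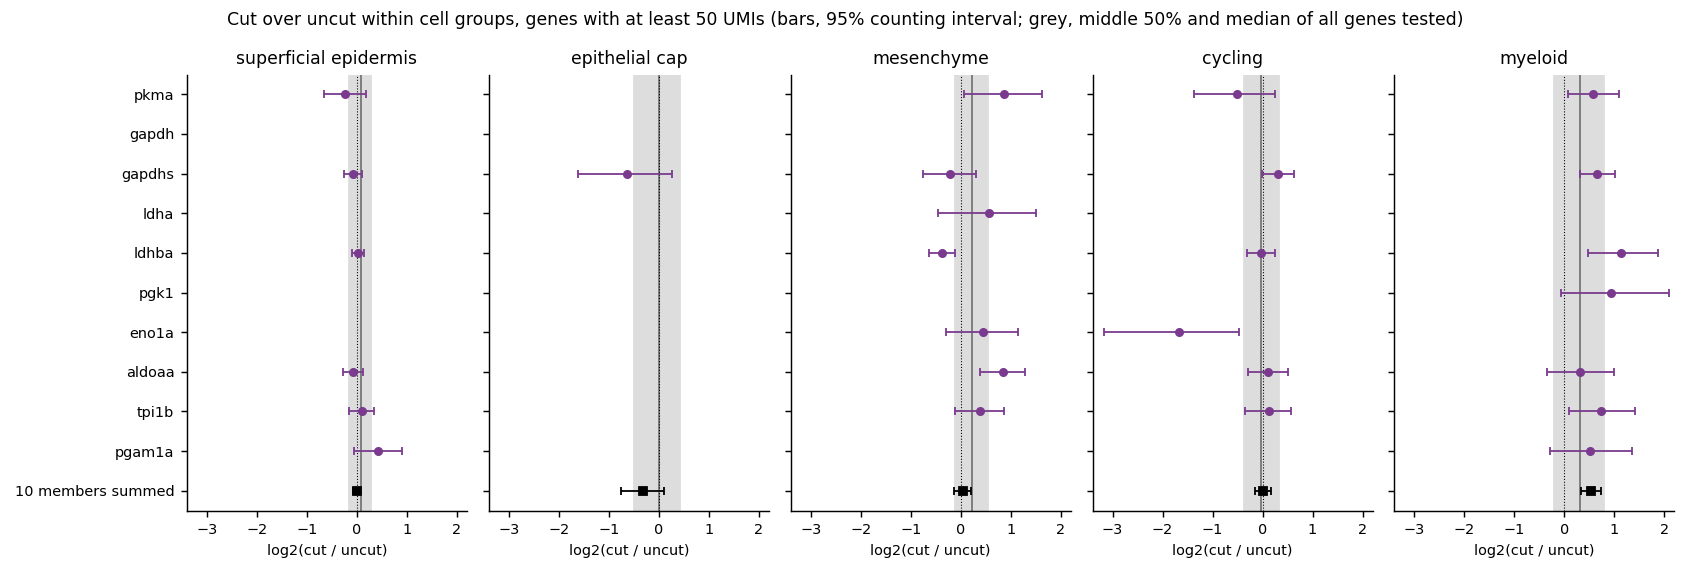
Log2 ratio of cut over uncut (horizontal axis, 0 means equal) of each glycolysis gene with at least 50 UMIs in a group and of the 10 summed, by cell group, with bars for the 95% counting interval, a grey line at the median of all genes tested in that group and a grey band over their middle 50%. The summed myeloid ratio lies at 0.54, right of 0, and those of the other 4 groups have intervals that include 0.

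The groups differed in the isozymes of a step. Enolase was mostly eno3, the form known from muscle in mammals, rather than eno1a. The gene eno3 had 739 and 604 UPM in cut and uncut myeloid cells, 410 and 297 in the epithelial cap, 218 and 230 in superficial epidermis, 214 and 102 in mesenchyme and 145 and 133 in cycling cells. The share of eno1a was 27.4% in cut and 36.5% in uncut mesenchyme, 9.09% and 25.4% in cycling cells, 15.3% and 6.67% in myeloid cells, 2.04% and 6.67% in the epithelial cap and 1.24% and 1.52% in superficial epidermis. Some of these rest on few UMIs, with 1 of 49 in the cut epithelial cap, 6 of 66 in cut cycling cells and 4 of 60 in uncut myeloid cells. Transcripts of close copies can lose reads that match both, so the shares between near-identical isozymes are uncertain.

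Glyceraldehyde phosphate dehydrogenase, lactate dehydrogenase and pyruvate kinase were led by gapdhs, ldhba and pkma in all 5 groups. The share of gapdhs was 99.8% and 99.7% in superficial epidermis and 95.2% and 73.4% in myeloid cells, or 99.0% and 98.7% in the myeloid cells other than the lyz or mpx cells. The share of ldhba was 99.7% and 99.2% in superficial epidermis, 91.6% and 95.4% in mesenchyme and 85.5% and 81.5% in myeloid cells. The gene pkma made up 100% of pyruvate kinase in every group and library but the uncut epithelial cap, with 94.7%. For pgam1a the share was 87.5% and 90% in myeloid cells, 69.5% and 65.7% in superficial epidermis and 28.6% and 16.7% in the epithelial cap, where pgam1b had 43.7 and 43.0 UPM. The shares in the epithelial cap rest on 2 of 7 and 2 of 12 UMIs.

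**Figure D5:**
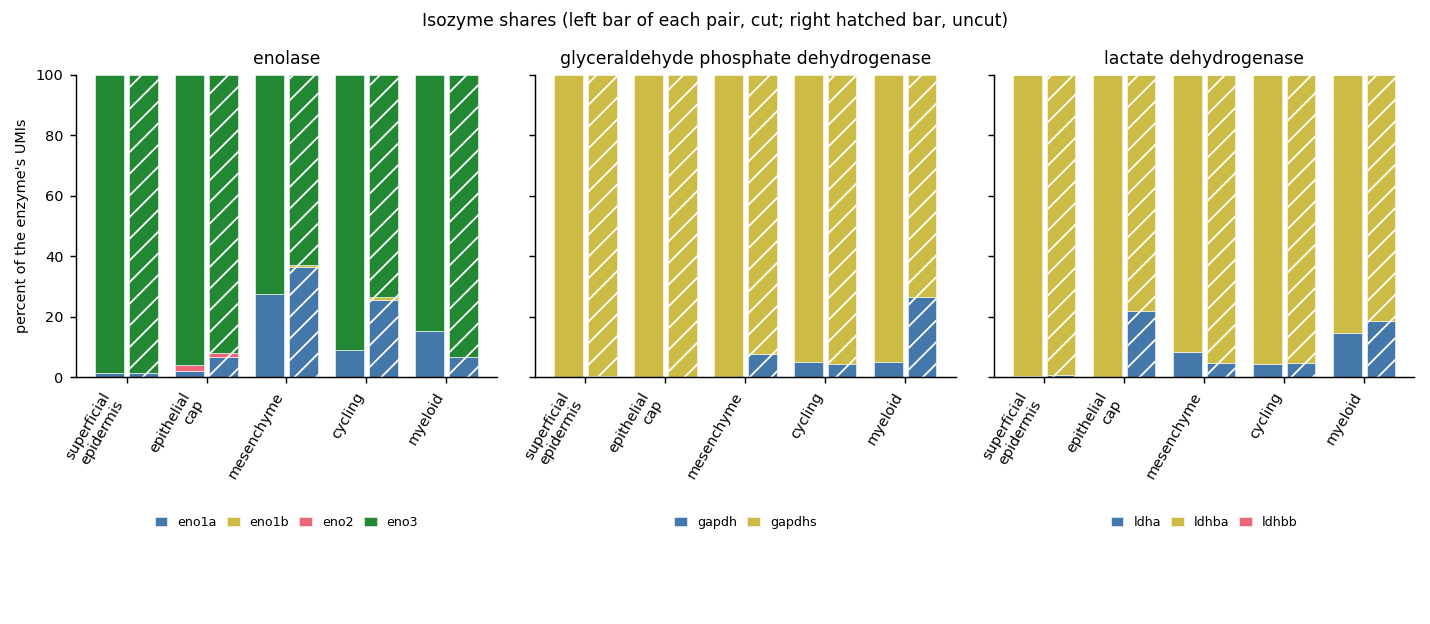
Stacked shares of the isozymes in the UMIs of enolase, glyceraldehyde phosphate dehydrogenase and lactate dehydrogenase (percent, axis from 0 to 100) by cell group, with the cut library as the plain left bar and the uncut library as the hatched right bar of each pair. The eno1a share is highest in mesenchyme, at 27.4% and 36.5%, and the gapdhs share is lowest in uncut myeloid cells, at 73.4%.

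Of the 25 other isozymes and steps listed, 22 were measured, and hk1, hk2, gpia, aldoab and eno3 were among those with at least 200 UMIs. Glucose phosphate isomerase a, from gpia, had 360 and 248 UPM in myeloid cells and at most 64.5 elsewhere in the 5 groups. The hexokinase gene hk2, which starts the path, was also highest in myeloid cells with 78.8 UPM (45.0 to 128) and 64.7 (23.7 to 141), which overlapped the 56.2 and 43.7 of superficial epidermis, and hk1 was highest in superficial epidermis with 66.3 and 72.7. Phosphofructokinase, the main control step, was counted from 3 genes only, so these values may miss part of the step. The 3 summed had at most 6 UMIs in any of the 5 groups and either library. They were at 0 UMIs in myeloid cells, with intervals up to 18.2 UPM in the cut and 39.8 in the uncut library. Their highest summed level in the 5 groups was 17.2 UPM in the uncut epithelial cap. The gene eno3 was higher in cut mesenchyme, at 1.07 (0.61 to 1.53).

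Genes of paths that branch from or reverse glycolysis were highest in different groups. Of the pentose phosphate genes, 6 of 8 were measured and 3 had at least 200 UMIs. The gene pgd, whose product makes NADPH, was highest in myeloid cells with 483 UPM in the cut and 291 in the uncut library, at most 69.9 elsewhere, and its log2 ratio in myeloid cells was 0.73 (0.10 to 1.40). The transketolase gene tktb was highest in myeloid cells too, with 202 and 194 UPM, whereas rpe was highest in cycling cells in both libraries. Of all genes with at least 50 UMIs, 8.64% were highest in myeloid cells and 12.9% in cycling cells in both libraries. Of the 8 gluconeogenesis genes, all measured and 2 of them at 0, only 2 had at least 200 UMIs. Both were highest in superficial epidermis in both libraries, beside 11.7% of all genes with at least 50 UMIs. Of these fbp1a, a fructose bisphosphatase, had 345 and 392 UPM there and 69.0 and 21.6 in myeloid cells, and pck2 had 77.0 and 67.0 UPM there and 4.93 and 0 in myeloid cells. Of 7 measured genes that bring pyruvate into mitochondria, 6 had at least 200 UMIs. Of these mpc1, a subunit of the pyruvate carrier, was highest in superficial epidermis with 318 and 288 UPM, as was mpc2 with 157 and 153. The genes pdha1a, pdhb, dlat and dldh were not highest in the same group in both libraries.

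Of the transport genes, 9 of 13 were measured. The gene bsg, whose product basigin chaperones lactate transporters to the membrane, was highest in the epithelial cap with 716 UPM (570 to 889) and 860 (745 to 988), against 359 and 397 in superficial epidermis and 286 and 216 in myeloid cells. Of 16 measured regulators 5 had at least 200 UMIs over all cells, and only those that reached 200 within the 5 groups were ranked. Beside 13.3% of all genes with at least 50 UMIs, 3 of the ranked regulators were highest in the epithelial cap in both libraries. These were hif1ab, a hypoxia-inducible factor, with 201 UPM (127 to 301) and 181 (130 to 244), hif1al with 279 and 322, and pfkfb4b, which sets a sugar phosphate that controls phosphofructokinase, with 43.7 and 38.7. In the cut library the hif1ab interval overlapped those of mesenchyme, cycling and myeloid cells, and in the uncut library that of myeloid cells. The intervals of the other genes overlapped those of mesenchyme in both libraries, at 278 and 293 UPM for hif1al and 31.6 and 30.7 for pfkfb4b. Of the genes of all lists other than the 10, 68 of 84 were measured. The monocarboxylate transporter gene slc16a1b had 42.2 and 56.6 UPM in mesenchyme and at most 32.4 elsewhere.

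Outside the 5 groups, muscle cells held 7794 and 5730 UPM of the 10 genes, above myeloid cells. Basal epidermis held 1656 UPM in 32 cut and 1283 in 111 uncut cells, mostly gapdhs with 903 and 777, and so was above superficial epidermis. It was also above the named mesenchyme, at 1266 and 1229 UPM, with overlapping intervals in the uncut library. Cells named neuromast held 1485 UPM in 21 cut and 1462 in 35 uncut cells. They too were above the named mesenchyme, with overlapping intervals in the cut library. The 5 clusters left unnamed by the naming rules differed. One of 41 cut and 106 uncut cells had 7 of 10 mesenchyme markers raised. It was left unnamed under the depth rule, with median depths of 2119 UMIs in the cut and 3759 in the uncut library. That cluster held 1933 and 1602 UPM, with ldhba at 1202 and 1077, above the named mesenchyme. Another of 41 and 26 cells led by lgals1l1 and krt91 held 1629 and 1808 UPM, with gapdhs at 1010 and 1169 and ldhba at 163 and 249. In the libraries as a whole the 10 genes stood at 1020 UPM in the cut and 1056 in the uncut library.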

How the data were processed

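The cut and the uncut library were used. The authors counted UMIs per gene with Cell Ranger 3.1.0 on danRer11 and deposited raw counts, as separate matrices and as the aggregated matrix used here. Reads that match several genes are dropped by that software. Cells were clustered with scanpy 1.11.5 and Leiden (resolution 1, 10 principal components, 15 neighbours), leaving out 78 pathway genes. A name needed at least 3 raised markers and went to the class with the largest share raised. It was withheld where another class had more markers among the 10 leading genes. It was also withheld where no leading gene was a marker of the class and the median depth was under 0.333 of the library median in either library. UMIs were summed per group and library and scaled to 1000000. Intervals are exact Poisson for levels, conditional binomial for ratios and Clopper-Pearson for shares, at 95%. Only the ratio interval and the thinning were tried on simulated data, which were drawn with counting error only. No test was made across 1 library per condition. Genes needed 50 UMIs in a group for a ratio, and named pathway genes 200 UMIs in all unless isozymes of a listed gene. No cell was removed. The genes, lists and markers were chosen with earlier results of these data known, and 4 alternatives were added after seeing the data. No sequence or coordinate is given, since the annotation at hand is of another build. One listed pathway gene and the shares and totals that include it are not reported here.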

Additional observations from a re-analysis of the deposited data

How the results depend on the processing

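No paired analysis was possible because there was 1 library per condition. No difference of at least 1.5-fold with the groups as named turned its sign under any alternative run. Other settings added calls both ways, such as tpi1b in mesenchyme at 0.61 with unnamed clusters joined and gapdhs there at -0.90 at resolution 0.5. Some genes under the limit changed sign, such as eno1a in mesenchyme from 0.45 to -0.57 with marker gates. The separate matrices, cells of at least 4000 UMIs and the unnamed clusters joined by their markers left every summed value inside its main counting interval. So did the settings without single kinds of myeloid cell, but that interval does not measure shifts between runs that share cells. Without the uncut myeloid cell with most gapdh the myeloid log2 ratio was 0.72 (0.50 to 0.94), against 0.54. The log2 level over superficial epidermis was 2.56 in myeloid cells, and 2.67 at resolution 0.5, 2.69 with thinned cells and 2.77 without ribosomal protein genes. In mesenchyme it was 0.89, and 0.80 with pathway genes kept, 1.36 at resolution 0.5 and 1.26 without ribosomal protein genes. In cycling cells it was 0.59, and 1.01 without ribosomal protein genes. In the epithelial cap it was -0.03, and 0.50 with pathway genes kept, 0.40 at resolution 2, 0.37 with cells gated on markers and -0.44 with thinned cells, so its order against superficial epidermis depends on these settings. For cut over uncut, superficial epidermis was at -0.12 (-0.22 to -0.03) and mesenchyme at -0.19 at resolution 0.5. Mesenchyme was at 0.22 with thinned cells and at -0.18 (-0.35 to -0.01) relative to the median gene, where superficial epidermis was at -0.08 with an interval just clear of 0. Cycling cells were at -0.24 (-0.40 to -0.08) at resolution 2. The epithelial cap, at -0.32 with an interval that included 0, was clear of 0 with pathway genes kept, at resolution 2 and with marker gates, at -0.38, -0.46 and -0.36. Myeloid cells were at 0.29 without ribosomal protein genes and 0.22 relative to the median gene. The causes of these shifts were not tested. Resolution 0.5 gave no epithelial cap or cycling group and so no value there. Leaving out cells rich in muscle or haemoglobin UMIs removed none of the cells of the 5 groups. Of 100 shares of cells, 68 moved without thinning and 48 at 4000 UMIs per cell. The limits are the 12 uncut myeloid and 36 epithelial cap cells and a single library per condition.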
